A study of Mus musculus with 48 samples.

Results

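Genes of leukocyte adhesion were followed in the lungs of 48 mice, namely Icam1, Vcam1, Sele, Selp, Selplg and Cd44, and all 6 were found by symbol among the 47561 genes of the deposited table. Lung RNA was sequenced from adult mice of the strains C3H/HeN (C3H) and C57Bl/6 (C57B), males and females, with 3 mice in each of 16 groups. By the labels, each mouse received saline or the gold compound aurothioglucose (ATG, 25 mg/kg into the abdomen), an inhibitor of thioredoxin reductase, and then breathed room air or hyperoxia (more than 95% oxygen) for 96 hours. Thus C3H male and female, and C57B male and female mice, were each studied after saline in room air, ATG in room air, saline in hyperoxia and ATG in hyperoxia. The substrain of C57B is not given in the sample labels, and other texts of the study name both C57Bl/6N and C57B6/J. No mouse carried a transgene or a deletion by the labels. In the design text of the series ATG is mentioned for all mice, and saline is known from the label of each mouse. The 12 saline mice in room air, 6 of each strain and 6 of each sex, are called the baseline mice.

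Leukocytes leave the blood in steps, and each step has its own molecules. Selectins on activated endothelium, E-selectin (Sele) and P-selectin (Selp, also stored in platelets), catch passing leukocytes by their ligand PSGL1 (Selplg), and the cells roll. ICAM1 (Icam1) and VCAM1 (Vcam1) then hold integrins on the leukocyte, and CD44 (Cd44), a receptor for hyaluronan, serves in adhesion on many cell types. In the lung, ICAM1 is also made by alveolar type 1 cells, and neutrophils are held in the narrow capillaries even at rest.

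All 6 members are protein coding genes of GRCm38 (mm10, GENCODE M21). Sele lies at chr1:164048234-164057677 and Selp at chr1:164115264-164150026, both on the plus strand and 57586 bases apart. Icam1 lies at chr9:21015985-21028817 on the plus strand. Vcam1 at chr3:116109949-116129688, Selplg at chr5:113818536-113832644 and Cd44 at chr2:102811141-102901665 are on the minus strand. Exons of genes on the opposite strand overlap those of Icam1 (Gm47079), Vcam1 (Gm43109) and Selp (Gm16587 and Gm16548), and since the use of strand in the authors' estimates is not given in the sources used here, reads of these pairs cannot be told apart. Gm16548 reached an FPKM of 8.19 and Gm16587 of 2.52 in at least 1 lung, and Gm43109 was listed at 0 throughout.

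The promoters of the neighbours Sele and Selp are shown because their RNA moved together among mice of the same group (r = 0.82). Selp moved as closely with Cd44 (r = 0.81), which lies on another chromosome. RefSeq promoters of GRCm38.p6, from 250 bases before to 50 after the start, were given for 4 of 6 members (Icam1, Sele, Selp and Cd44). Both strands were searched for 3 motifs, those of the transcription factors AP-1 and NF-kappaB and the TATA box (TATAAA). The AP-1 motif TGANTCA was found at -73 in Sele and at -139 in Selp, counted from the start, and in 7.81% of all 32851 promoters. This motif was not found in the windows of Cd44 and Icam1, and a link between the motif and the shared movement was not tested. The motif TATAAA was found at -49 in Sele and at 14 in Icam1, and in 13.6% of all promoters. The NF-kappaB motif was searched as GGGRNWYYCC (R a purine, N any base, W A or T, Y a pyrimidine). It was found in none of these 4 windows and in 4.51% of all promoters. Other spellings of the motif were not searched, so these windows may hold NF-kappaB sites that were missed. A match is a description of letters, not of a bound site. The 250 bases before each start are printed 5' to 3' on the plus strand, with motif letters in capitals, for Sele (chr1:164047984-164048233) and for Selp (chr1:164115014-164115263).
Sele: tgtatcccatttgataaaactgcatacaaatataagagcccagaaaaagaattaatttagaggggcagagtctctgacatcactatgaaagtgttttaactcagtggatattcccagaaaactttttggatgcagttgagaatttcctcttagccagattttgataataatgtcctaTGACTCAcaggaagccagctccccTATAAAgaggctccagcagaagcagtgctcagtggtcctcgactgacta
Selp: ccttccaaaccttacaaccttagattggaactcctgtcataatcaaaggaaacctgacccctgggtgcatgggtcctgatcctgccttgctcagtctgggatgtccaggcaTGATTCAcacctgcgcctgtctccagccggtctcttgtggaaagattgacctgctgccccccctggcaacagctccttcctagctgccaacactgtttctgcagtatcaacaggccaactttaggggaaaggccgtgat

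Values are FPKM, mapped fragments scaled to the length of the transcript and to the mapped total, so levels of different genes can be compared per length. At baseline (n = 12), Icam1 was the most abundant of the 6, with 198 ± 45.3 FPKM (mean ± SD). Cd44 (36.4 ± 7.15), Selplg (34.6 ± 10.8) and Vcam1 (28.2 ± 3.84) followed with ranges that overlapped. Selp (2.61 ± 0.921) and Sele (0.618 ± 0.635) were low, and their ranges met at 1.54 to 2.27 FPKM. The lowest Icam1 value at baseline, 135, was above every value of the other 5 genes. Over all 48 lungs Vcam1 varied from 15.2 to 45.2 FPKM, Selp from 1.35 to 80.8 and Sele from 0 to 21.3.

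The lungs were not all alike within groups. Over 16994 genes, correlations between mice of one group ran from 0.933 to 0.979, and the lowest mean correlations with group mates were those of the 3 male C3H baseline mice (0.943 to 0.955) and, in hyperoxia, of mouse 19 (a C57B male given saline, 0.946) and mouse 33 (a C3H female given saline, 0.948). Both hyperoxic mice had high values of neutrophil markers. The summed FPKM of 9 markers (S100a8, S100a9, Retnlg, Cxcr2, Csf3r, Ly6g, Mmp8, Camp and Ngp, none of them at 0 in all lungs) was 4967 in mouse 19 and 290 and 167 in its group mates, and 6363 in mouse 33 and 187 and 1507 in its group mates. S100a8 and S100a9 made up 74.1% to 91.9% of this sum. Several results in hyperoxia rest in part on mice 19 and 33, and the values without one or both of them stand beside these. This was decided after the data were seen, as both mice also had high values of Selp and Sele. Markers of lung epithelium were high in all groups, while heart muscle markers (Myl7, Myh6, Nppa, Actc1 and Tnnt2) summed to between 9.88 and 1018 FPKM. Genes of chromosomes X, Y and M are listed at 0, so the sex labels could not be checked.

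**Figure D1:**
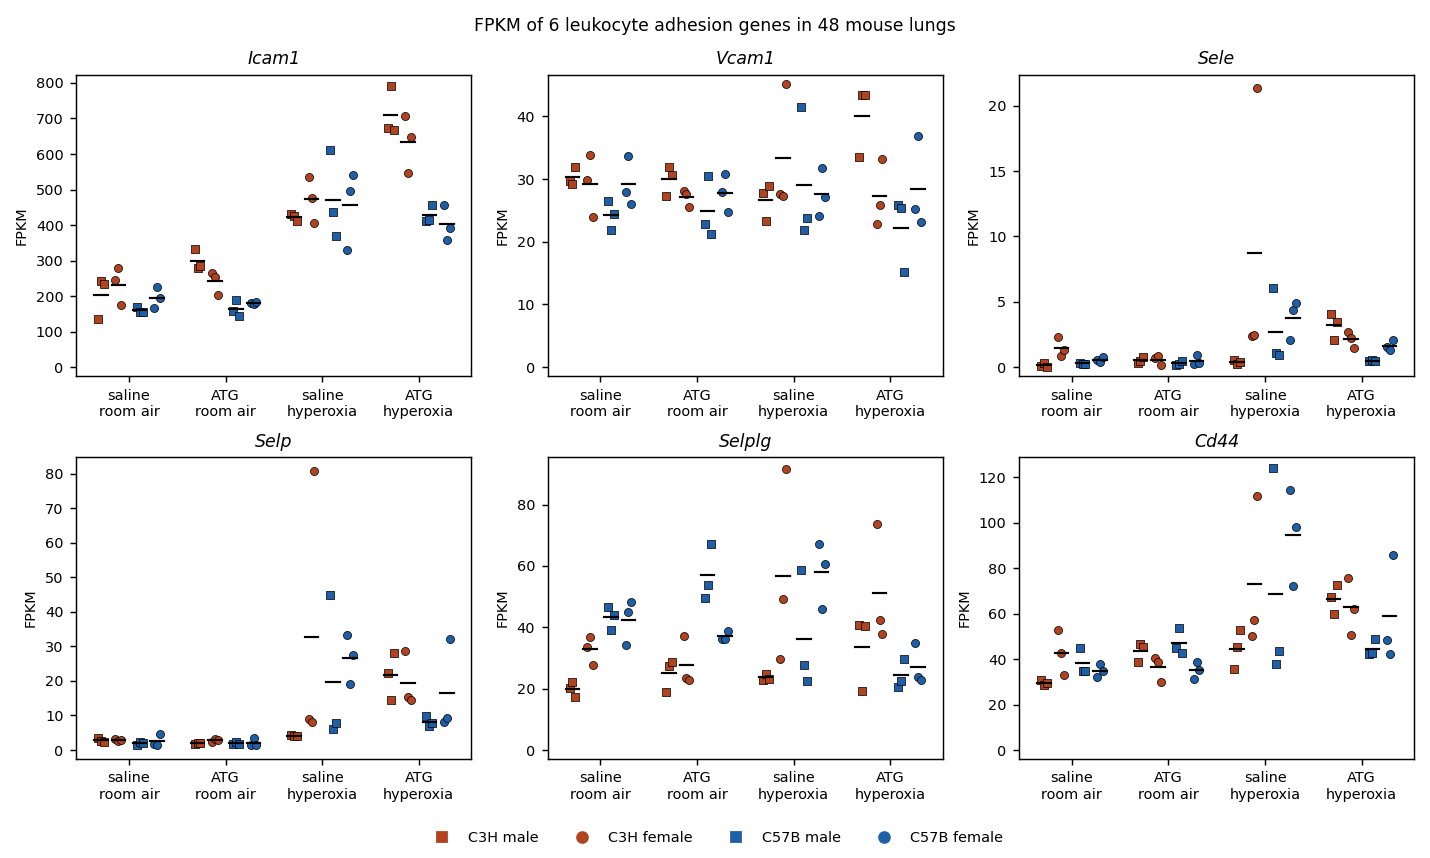
FPKM of each member (vertical axes, linear) in every mouse, by injection and air (horizontal axis), with C3H in red, C57B in blue, males as squares and females as circles, 3 mice a group, and a line at each group mean. Icam1 was higher in all 12 hyperoxic saline lungs (331 to 611) than in all 12 baseline lungs (135 to 278), and mouse 33 is the highest point for Selp (80.8) and Sele (21.3). The share of all genes separated in this way is not given here.

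Between strains at baseline, Selplg was lower in C3H than in C57B, and the other members did not pass the test. Selplg, whose product is the leukocyte ligand of the selectins, was at 17.3, 24.9 and 37.0 FPKM (lowest, median and highest of 6) in C3H and at 34.3, 44.5 and 48.3 in C57B. Of the C3H lungs, 5 of 6 were below all C57B lungs. The difference (C3H minus C57B) on the log2(FPKM + 1) scale was -0.73 (SE 0.11, limma, adjusted p = 0.00145), and the mean FPKM was 26.3 ± 7.82 in C3H and 42.9 ± 5.23 in C57B (exact permutation test within sexes, two-sided, p = 0.01). In whole lung, fewer cells that make a transcript and less of it per cell cannot be told apart. Of 5 members tested, 1 was called lower, beside 7.87% of the 15546 genes tested in that direction and 11.8% in either direction. The median of all genes was -0.10. Of all genes called, 66.8% were lower in C3H with the values as deposited and 48.8% after quantile normalization, and Selplg was called lower in both. Sele did not reach an FPKM of 1 in 3 of the baseline mice and was not tested there.

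Some markers of neutrophils and lymphocytes were, like Selplg, lower in C3H. Of 9 neutrophil markers, 5 were lower in C3H and none was higher, with summed FPKM from 138 to 315 in C3H and from 185 to 781 in C57B. After either rescaling of the libraries 2 of these 5 (S100a8 and S100a9) were called. In males the sums were 138 to 315 in C3H and 574 to 781 in C57B. In females they overlapped, at 187 to 256 and 185 to 357. Of 6 B cell markers 5 were lower, with sums from 21.9 to 73.5 in C3H and from 80.7 to 108 in C57B, and of 7 T cell markers 3 were lower, with sums from 19.8 to 41.5 and from 41.2 to 68.4. The calls of Cd22 (B cell) and Cd3e (T cell) were lost after either rescaling, and that of Cd3d (T cell) after quantile normalization. Recruited monocyte markers went both ways, with 2 of 6 higher and 3 lower, and of 7 alveolar macrophage markers 2 were higher and 1 lower in C3H. The part of these cells in the Selplg difference was not tested. The 4 other members tested had differences between -0.04 (Cd44, SE 0.12, adjusted p = 0.869) and 0.27 (Selp, SE 0.20, adjusted p = 0.414, and Icam1, SE 0.16, adjusted p = 0.325).

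Between sexes at baseline, no member passed the test in limma (0 of 5 tested, beside 0.669% of all genes, that is 104 genes at the adjusted and 3617 at the unadjusted threshold). Selplg had the lowest unadjusted p, with a difference between males and females of -0.33 (SE 0.11, adjusted p = 0.143) and a mean of 31.6 ± 13.2 FPKM in males and 37.6 ± 7.63 in females. Sele was at 0, 0.274 and 0.334 FPKM in males and at 0.372, 0.832 and 2.27 in females (lowest, median and highest of 6), so the sexes did not overlap (exact permutation test within strains, p = 0.005, the smallest that 400 arrangements can give). With a lower filter of 0.1 FPKM, which kept Sele in the fit, the limma difference was -0.68 (SE 0.14, adjusted p = 0.0764). These Sele levels are close to 0, and the depth of the libraries is unknown. The permutation p was not adjusted for the 6 members, and the share of all genes that separated the sexes is not given here.

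In the test of strain by sex, 0 of 5 members and 0% of genes were called by limma, with 2538 genes at an unadjusted p under 0.05. Selplg had the largest difference among them (-0.73, SE 0.23, adjusted p = 0.214). It was lowest in C3H males, at 17.3, 20.2 and 22.0 FPKM, against 27.7, 33.6 and 37.0 in C3H females. C57B males had 39.2, 44.1 and 46.8, and C57B females 34.3, 44.8 and 48.3. Without mouse 2, a male C3H baseline mouse, Selplg was called for sex (-0.36, adjusted p = 0.0432, range over 19 alternatives 0.0432 to 0.314) and for strain by sex (-0.81, adjusted p = 0.0359, range 0.0359 to 0.410). The same step raised the genes called over the whole table from 104 to 3640 for sex and from 0 to 2741 for strain by sex.

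Hyperoxia was examined in the 24 saline mice. Icam1, Selp, Sele and Cd44 were higher in hyperoxia than in room air, and Vcam1 and Selplg did not pass the test. Icam1, the endothelial and epithelial ligand of leukocyte integrins, had 135, 186 and 278 FPKM (lowest, median and highest of 12) in room air and 331, 433 and 611 in hyperoxia. The groups did not overlap, and each of the 4 strain and sex groups was higher in hyperoxia, by 2.03 to 2.95 times in mean FPKM. The share of all genes without overlap is not given here, and 60.1% of all genes tested were called for hyperoxia. The mean rose from 198 ± 45.3 to 456 ± 79.3 FPKM (log2 difference 1.21, SE 0.11, limma, adjusted p = 2.28e-08; exact permutation test within strain and sex, p = 1.25e-05, the smallest that 160000 arrangements can give).

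Selp, encoding P-selectin, had 1.54, 2.40 and 4.71 FPKM in room air and 3.96, 8.65 and 80.8 in hyperoxia. Of the hyperoxic lungs, 9 of 12 were above all room air lungs. The log2 difference was 2.00 (SE 0.32, limma, adjusted p = 2.17e-05) and, without mice 19 and 33, 1.53 (SE 0.13, adjusted p = 1.80e-08). The rise was uneven among groups. In C3H males it was small, with 3.96, 3.97 and 4.32 FPKM in hyperoxia against 2.24, 2.56 and 3.61 in room air. In C57B females it was large, with 19.2, 27.4 and 33.3 against 1.58, 1.82 and 4.71. In C3H females, 2 hyperoxic mice had 8.17 and 9.12 and mouse 33 had 80.8, and in C57B males 2 had 6.06 and 7.88 and mouse 19 had 44.9.

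Sele, encoding E-selectin, had 0, 0.353 and 2.27 FPKM in room air and 0.235, 2.26 and 21.3 in hyperoxia. Of the hyperoxic lungs, 6 of 12 were above all room air lungs, and the groups overlapped. The log2 difference was 1.12 (SE 0.27, limma, adjusted p = 0.00119) and, without mice 19 and 33, 0.75 (SE 0.13, adjusted p = 5.41e-05). C3H males were again low, at 0.235, 0.360 and 0.559 FPKM in hyperoxia. Cd44, the hyaluronan receptor, had 28.7, 34.6 and 52.7 FPKM in room air and 35.7, 55.0 and 124 in hyperoxia, with 7 of 12 hyperoxic lungs above all room air lungs. Its log2 difference was 0.82 (SE 0.17, limma, adjusted p = 0.000292) and, without mice 19 and 33, 0.60 (SE 0.097, adjusted p = 3.78e-05). Mouse 19 had the highest Cd44 value, 124 FPKM, against 37.8 and 43.7 in its group mates.

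Vcam1, encoding the ligand of an integrin of lymphocytes and monocytes, had 21.8, 28.5 and 33.8 FPKM in room air and 21.8, 27.4 and 45.2 in hyperoxia. Its log2 difference was 0.03 (95% interval -0.19 to 0.25, adjusted p = 0.851), and its sign turned under both other scalings of the libraries. Selplg had 17.3, 35.6 and 48.3 FPKM in room air and 22.6, 37.9 and 91.7 in hyperoxia, a log2 difference of 0.24 (95% interval -0.085 to 0.57, adjusted p = 0.193). Without mouse 31, a C3H female, Selplg was called (0.34, adjusted p = 0.0424, range over 32 alternatives 0.0424 to 0.768). Mouse 33 had the highest value of both genes in hyperoxia. The log2 differences without mice 19 and 33 were -0.10 for Vcam1 and 0.036 for Selplg.

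In all, 4 of 6 members were called higher in hyperoxia and none lower, beside 31.8% of 16321 genes called higher and 60.1% called in either direction. The median log2 difference was 0.97 over the 6 members and 0.01 over all genes. Within C3H, 3 of 6 were called (37.8% of all genes), namely Icam1 (1.07, adjusted p = 3.98e-05), Selp (1.37, adjusted p = 0.0220) and Cd44 (0.62, adjusted p = 0.0437), with Sele at 0.85 (adjusted p = 0.0838) and, without mouse 33, at 0.40 (adjusted p = 0.271). Within C57B, 4 of 6 were called (55.5% of all genes), namely Icam1 (1.36), Selp (2.62), Sele (1.40) and Cd44 (1.01). Calls in C3H rested in part on mouse 33. Without it Icam1 alone was called, with Selp at 0.86 (adjusted p = 0.0592, range over 32 alternatives 0.00145 to 0.0592) and Cd44 at 0.45 (adjusted p = 0.136, range 0.00690 to 0.171). The call for Cd44 was lost in 16 of its 32 alternatives. Without mice 19 and 33 together, 3 members were called in C3H.

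**Figure D2:**
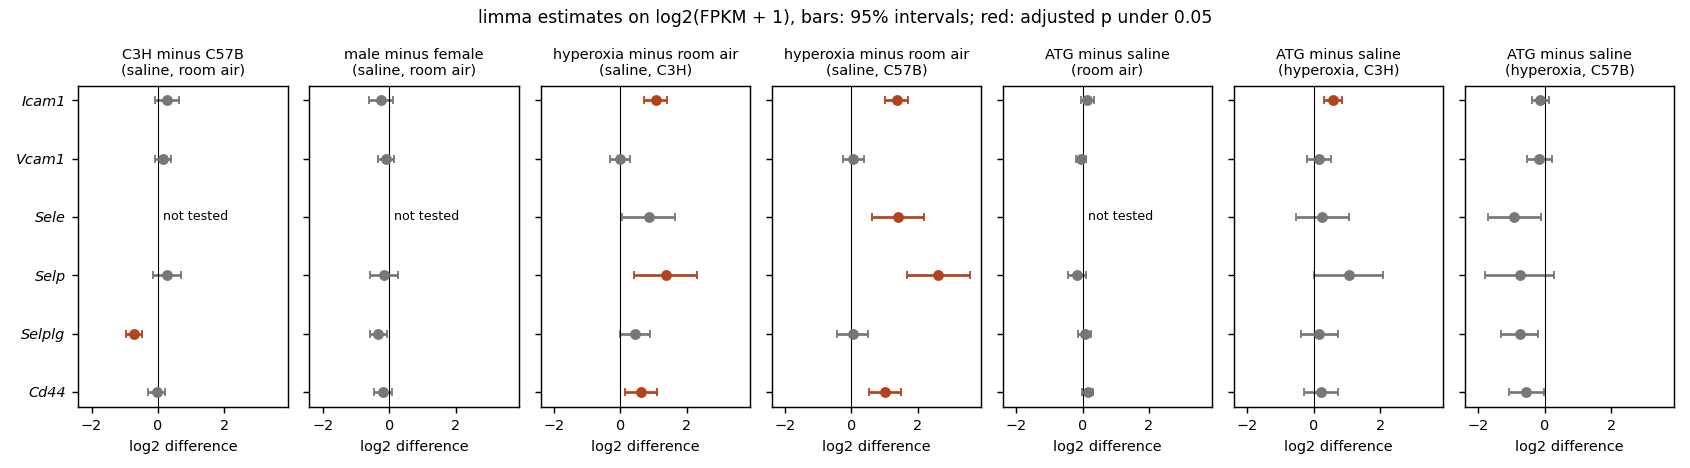
Log2 difference on the log2(FPKM + 1) scale (horizontal axes) of each member (vertical axis) in 7 comparisons, as limma estimates with 95% intervals as bars, in red where the adjusted p was under 0.05. Selplg lies left of 0 between strains (-0.73), Icam1 lies right of 0 in hyperoxia in both strains (1.07 and 1.36) and after ATG in hyperoxia in C3H (0.58).

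The effect of hyperoxia was then compared between strains and between sexes. By limma, 0 of 6 members were called for strain by hyperoxia (11.5% of all genes, and 4571 genes at an unadjusted p under 0.05) and 0 of 6 for sex by hyperoxia (0.0368% of all genes, 6 in number, and 2964 at an unadjusted p under 0.05). Selp had the largest differences, -1.24 between C3H and C57B (95% interval -2.58 to 0.098, adjusted p = 0.212) and -1.29 between males and females (SE 0.64, adjusted p = 0.293). Without mice 19 and 33 both passed, at -1.33 (SE 0.26, adjusted p = 0.00322, range over 32 alternatives 0.00322 to 0.372) and -1.20 (SE 0.26, adjusted p = 0.0220, range 0.0220 to 0.450), and no other member did. Both mice held the highest Selp value of their group. Leaving out 1 mouse at a time moved the values both ways. The strain difference for Selp was -1.76 (adjusted p = 0.0187) without mouse 33 and -0.82 (adjusted p = 0.372) without mouse 19. The sex difference was -0.77 (adjusted p = 0.445) without mouse 33 and -1.71 (adjusted p = 0.0629) without mouse 19.

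Markers of several cell types moved in the same comparison. In saline mice 8 of 9 neutrophil markers were called higher in hyperoxia, and their summed FPKM ran from 138 to 781 in room air and from 167 to 6363 in hyperoxia. The rise was uneven. Within C3H 2 of 9 were called higher, with median sums of 197 in room air and 209 in hyperoxia. Within C57B 6 of 9 were called higher, with medians of 466 and 3130. The hyperoxic C3H males had sums of 183 to 225. Over both strains, of 9 endothelial markers 3 were higher and 4 lower, with sums of 1346 to 2017 in room air and 1184 to 2506 in hyperoxia. Of 8 platelet and megakaryocyte markers none was higher and 1 was lower, with sums of 42.3 to 147 and 49.4 to 140. Other cell types moved too. Recruited monocyte markers were higher in 4 of 6 and lower in 1, with sums of 167 to 360 FPKM in room air and 258 to 810 in hyperoxia, and alveolar macrophage markers were higher in 5 of 7 and lower in 2, with sums of 182 to 626 and 303 to 1850. Alveolar type 1 markers were lower in 4 of 6 and higher in none, with sums of 2761 to 5948 in room air and 1310 to 4027 in hyperoxia, while Icam1 was higher. Alveolar type 2 markers were lower in 5 of 6 and higher in 1. The part of these cells in the differences of the members was not tested.

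Within groups, members were also set against these marker sums, as deviations of log2(FPKM + 1) from the 16 group means in 48 lungs (18 relations, permuted within groups, Benjamini-Hochberg adjusted). Selplg followed the neutrophil sum most closely (r = 0.88, permutation p = 5e-05, adjusted p = 0.00054, rho = 0.80, permutation p = 6e-05). Cd44 (r = 0.78, permutation p = 6e-05, adjusted p = 0.00054, rho = 0.68, adjusted permutation p of rho = 0.00036), Selp (r = 0.75, permutation p = 0.00137, adjusted p = 0.00616, rho = 0.58, permutation p = 0.00106) and Sele (r = 0.74, permutation p = 0.00094, adjusted p = 0.00564, rho = 0.53, permutation p = 0.003) did so too. Without the 2 mice farthest from the median (19 and 31) these r were 0.84, 0.69, 0.66 and 0.63. Icam1 (r = 0.03, permutation p = 0.901, rho = -0.04, permutation p = 0.85) and Vcam1 (r = 0.29, permutation p = 0.315, rho = 0.02, permutation p = 0.932) did not pass. No relation with the endothelial or platelet sums passed after adjustment, the lowest adjusted p being 0.0836 for Icam1 with the endothelial sum and for Selp with the platelet sum. Of the C57B males given ATG in room air, the mouse with the highest neutrophil sum (3649) also had the highest Selplg (67.3 FPKM) of the room air lungs, while Selp in that group was between 1.72 and 2.39 FPKM.

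**Figure D3:**
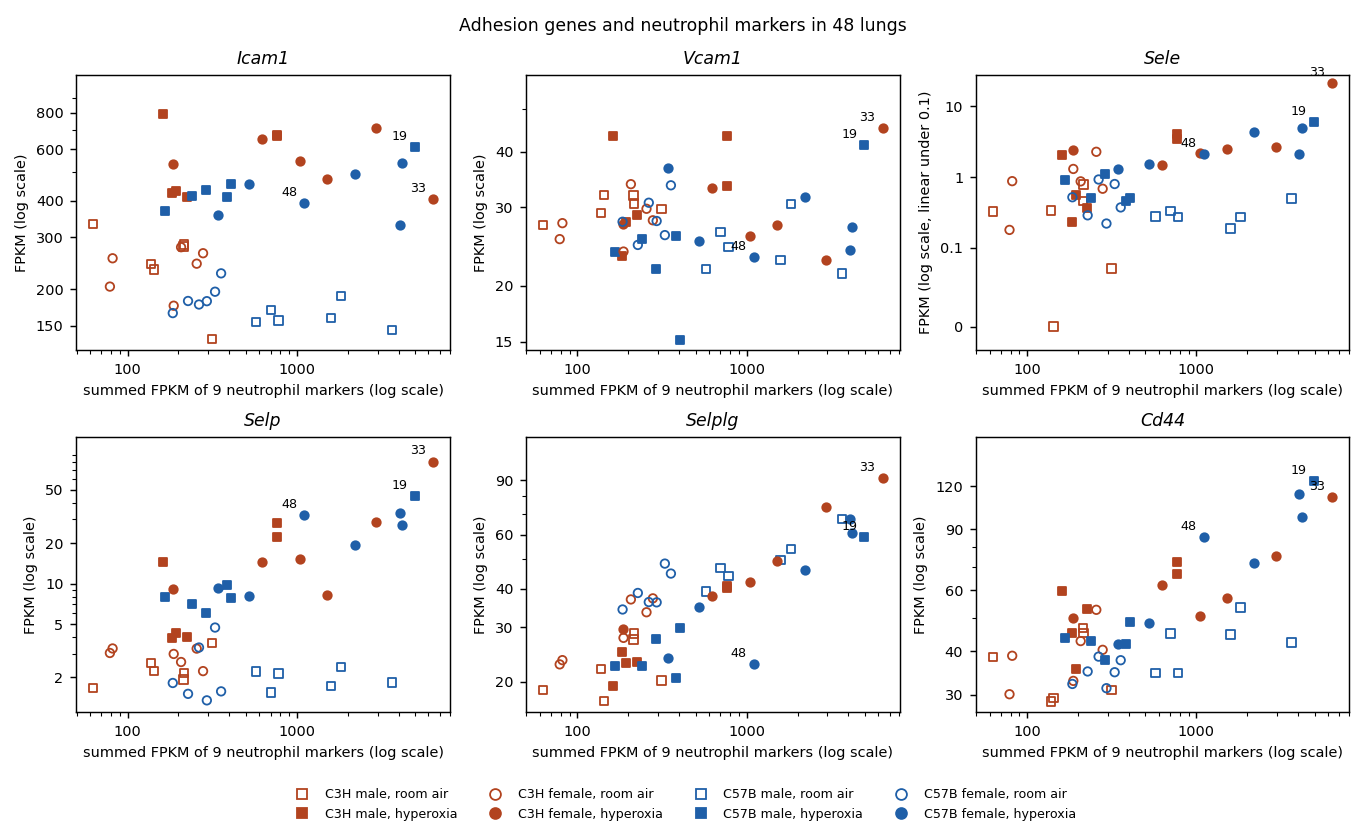
FPKM of each member (vertical axes, log scale) against the summed FPKM of 9 neutrophil markers (horizontal axes, log scale) in 48 lungs, open symbols for room air and filled ones for hyperoxia, with mice 19, 33 and 48 numbered. Selplg is higher where the sum is higher in both airs, and Icam1 lies at 135 to 333 in room air and at 331 to 791 in hyperoxia over the range of sums.

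ATG in room air was compared with saline over both strains and sexes. None of the 5 members tested was called by limma, beside 0.0185% of 16228 genes, 3 in number, with 1077 genes at an unadjusted p under 0.05. Cd44 was at 40.5 ± 6.65 FPKM after ATG and 36.4 ± 7.15 after saline (log2 difference 0.15, 95% interval -0.0082 to 0.32, adjusted p = 0.741). Icam1 was at 221 ± 59.6 and 198 ± 45.3 FPKM (0.15, 95% interval -0.054 to 0.35, adjusted p = 0.760). The log2 differences of Selp (-0.16), Selplg (0.06) and Vcam1 (-0.04) did not pass either. Sele, below the filter, was at 0.474 ± 0.275 after ATG and 0.618 ± 0.635 after saline (exact permutation test, p = 0.443).

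ATG in hyperoxia was compared in the same way in the 24 hyperoxic mice, whose saline lungs also served in the comparison of hyperoxia with room air. Over both strains no member was called (0 of 6 by limma, beside 5.47% of 15860 genes and 3472 genes at an unadjusted p under 0.05). Icam1 was nearest, with 543 ± 147 FPKM after ATG and 456 ± 79.3 after saline (log2 difference 0.22, SE 0.09, adjusted p = 0.142). The 95% intervals of the other 5 members included 0. In the test of ATG by hyperoxia over all 48 mice, 0 of 6 members were called by limma (2.77% of 16994 genes, and 3190 genes at an unadjusted p under 0.05), with log2 differences from -0.36 (Selplg) to 0.30 (Selp), and without mice 19 and 33 it was -0.15 for Selplg and 0.77 for Selp (adjusted p = 0.0601).

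Within strains, which were separated after the values had been seen, Icam1 was higher after ATG in hyperoxic C3H. It had 407, 429 and 536 FPKM (lowest, median and highest of 6) after saline and 545, 671 and 791 after ATG. The groups did not overlap, although the nearest lungs were at 536 and 545, and the share of all genes without overlap is not given here. The log2 difference was 0.58 (SE 0.13, limma, adjusted p = 0.0164; exact permutation test within sex, p = 0.005, the smallest that 400 arrangements can give), with means of 448 ± 49.6 and 672 ± 80.0 FPKM. It was 1 of 6 members called, beside 2.65% of all genes. After quantile normalization it was 0.46 (adjusted p = 0.0508, range over 32 alternatives 0.00700 to 0.0508), the one alternative without the call. In the same comparison 5 of 7 alveolar macrophage markers were lower and none higher, with sums of 303 to 866 FPKM (median 437) after saline and 115 to 489 (median 163) after ATG. Of 6 alveolar type 1 markers Pdpn was higher and none was lower, with sums of 1310 to 4027 after saline and 2083 to 4198 after ATG. The part of these cells in the Icam1 difference was not tested. In hyperoxic C57B the same gene had 331, 466 and 611 FPKM after saline and 357, 414 and 456 after ATG, a log2 difference of -0.13 (95% interval -0.40 to 0.13, adjusted p = 0.593). In room air, Icam1 in C3H was at 218 ± 52.6 FPKM after saline and 270 ± 42.3 after ATG. In C57B in room air it was at 178 ± 28.0 and 172 ± 17.0, and ATG in room air was not tested within strains. Over both strains, the ATG by hyperoxia estimate of Icam1 was 0.08 (SE 0.13, limma, adjusted p = 0.802).

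In C57B, none of 6 members was called after ATG in hyperoxia by limma (0.864% of all genes, 137 in number, and 3079 at an unadjusted p under 0.05). All 6 estimates were below 0, but the members share the same mice, so these signs are not independent. Selplg was at 47.2 ± 18.5 FPKM after saline and 25.8 ± 5.46 after ATG (log2 difference -0.76, 95% interval -1.32 to -0.21, adjusted p = 0.137). Sele was at 3.22 ± 2.14 and 1.06 ± 0.674 FPKM, with ranges that overlapped (-0.92, 95% interval -1.72 to -0.13, adjusted p = 0.196, exact permutation test within sex, p = 0.005). Cd44 was at 81.6 ± 36.2 and 51.6 ± 17.0 FPKM (-0.56, 95% interval -1.09 to -0.037, adjusted p = 0.227). The neutrophil sum ran from 167 to 4967 (median 3130) in these saline lungs and from 240 to 1107 (median 396) after ATG, with 0 of 9 markers called, and its part in these values was not tested. These differences rest in part on mouse 19. Without it the log2 difference was -0.56 for Selplg, -0.62 for Sele (adjusted p = 0.481), -0.30 for Cd44 (adjusted p = 0.564), -0.34 for Selp, -0.032 for Icam1 and -0.029 for Vcam1, and the adjusted p of Selplg was 0.350.

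Selp in hyperoxic C3H had 3.96, 6.25 and 80.8 FPKM after saline and 14.5, 18.8 and 28.8 after ATG. All 6 ATG lungs were above 5 of the 6 saline lungs and below mouse 33. The log2 difference was 1.05 (SE 0.49, adjusted p = 0.290), and without mouse 33 it was 1.57 (adjusted p = 0.0286, range over 32 alternatives 0.00293 to 0.551). Sele after ATG had 1.46, 2.44 and 4.09 FPKM, and 0.235, 1.49 and 21.3 after saline (log2 difference 0.26, adjusted p = 0.804). Without mice 19 and 33 it was 0.71 (adjusted p = 0.0191, range over 32 alternatives 0.0191 to 0.988), and 3 members were then called in C3H, namely Icam1, Selp and Sele. Mouse 33 held the highest Selp and Sele of the saline lungs, and leaving it out lowers the saline mean. The step without mice 19 and 33 was chosen after these values were seen, so the calls of Selp and Sele are no separate support. In C3H the neutrophil sum had a median of 209 after saline (183 to 6363) and 765 after ATG (162 to 2938).

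The strain by ATG test in hyperoxia, also chosen after the values were seen, called 0 of 6 members by limma (0.416% of all genes, 66 in number, and 2110 at an unadjusted p under 0.05). The log2 difference between the ATG effects in C3H and C57B was 0.72 for Icam1 (95% interval 0.34 to 1.09, adjusted p = 0.0909) and 1.81 for Selp (95% interval 0.35 to 3.27, adjusted p = 0.275). All 6 estimates were above 0, but the members come from the same mice and several moved together, so these signs are not independent. Icam1 passed without mouse 21 (0.80, adjusted p = 0.0420), without mouse 43 (0.82, adjusted p = 0.0283) and in a fit of all 48 mice (0.72, adjusted p = 0.0433), with a range over 32 alternatives of 0.0283 to 0.170. Without mouse 19 Icam1 was at 0.61 (adjusted p = 0.127), Cd44 at 0.52 in place of 0.78 and Vcam1 at 0.18 in place of 0.32. Selp and Sele passed without mouse 33 (2.33 and 1.63, adjusted p = 0.0366 and 0.0325), with ranges over 32 alternatives of 0.0173 to 0.446 and 0.00996 to 0.557. Mouse 33 held the highest value of both genes among the saline lungs, so leaving it out raises these differences.

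**Figure D4:**
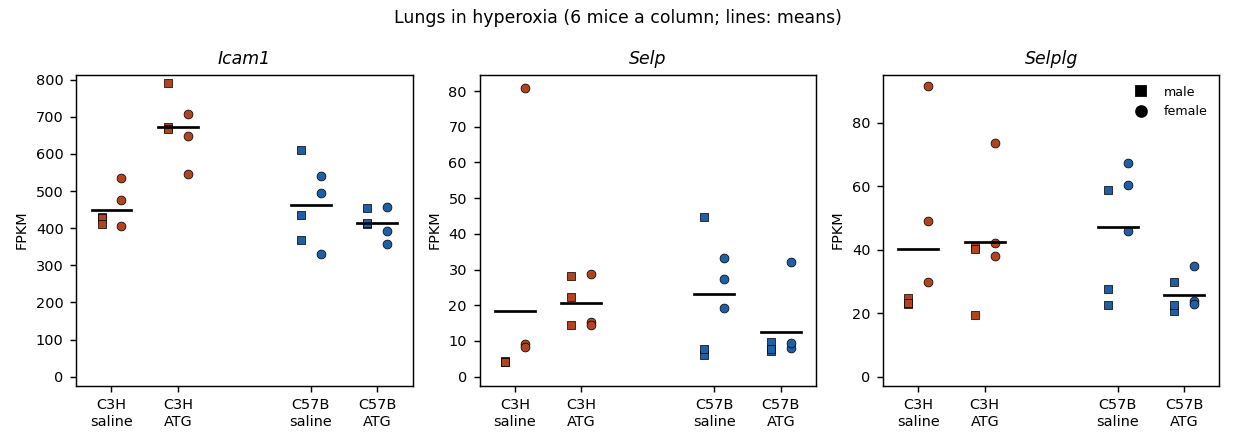
FPKM (vertical axes, linear) of Icam1, Selp and Selplg in hyperoxic lungs of both strains after saline or ATG, 6 mice a column, squares for males, circles for females and lines at the means. Icam1 in C3H lies at 407 to 536 after saline and 545 to 791 after ATG, and the Selp value of 80.8 in C3H after saline is mouse 33.

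The partners of these molecules were read from lists of related genes in the hyperoxia comparison of saline mice, in which 31.8% of all genes tested were called higher and 28.3% lower. The counts that follow are to be read beside these shares. Of 7 leukocyte integrin genes tested, 4 were called higher and 3 lower. Itgam and Itgb2, which encode the chains of the ICAM1 receptor Mac-1, rose by 1.03 (SE 0.26, adjusted p = 0.00223) and 0.98 (SE 0.11, adjusted p = 3.91e-07) on the log2 scale, and Itgax rose by 0.85 (SE 0.10, adjusted p = 2.86e-07). Itgam is listed under 2 identifiers in the table, so its reads may have been divided and its value is uncertain. Itgb7, a chain of lymphocyte integrins, fell by 0.93 (SE 0.09, adjusted p = 1.67e-08). Markers of T cells (7 of 7) and of B cells (5 of 6) were lower in the same comparison, with T cell sums from 19.8 to 68.4 in room air and from 7.88 to 31.6 in hyperoxia, and the part of these cells in Itgb7 was not tested.

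Of 8 other endothelial adhesion and junction genes tested, 1 was higher and 3 were lower, a share of calls no larger than the 60.1% over all genes. Icam2, a resident endothelial relative of Icam1, fell by 1.15 (SE 0.09, adjusted p = 2.59e-09), Esam fell by 0.31 and Jam3 fell by 0.29, while Cdh5, encoding VE-cadherin, rose by 0.39 and did not pass after quantile normalization. Of 15 selectin-related genes, mostly of selectin ligands and their glycosylation enzymes, 3 were higher and 8 lower. Cd34, a sialomucin of endothelium and progenitors, rose by 1.29 (SE 0.08, adjusted p = 5.15e-11). The sulfotransferase genes Chst2 and Chst4, which modify selectin ligands, fell by 1.01 and 0.76, and Spn, encoding the leukocyte sialomucin CD43, fell by 1.01.

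Of 10 genes tested of CD44 ligands, hyaluronan enzymes and membrane linkers, 6 were higher and 4 lower. Lyve1, a hyaluronan receptor related to CD44, rose by 3.10 (SE 0.13, adjusted p = 1.97e-13), Has1, a hyaluronan synthase, rose by 1.89 and Spp1, encoding the CD44 ligand osteopontin, rose by 1.64. Hyal1, a hyaluronidase, fell by 1.41. Of 7 cytokine genes known to induce endothelial adhesion molecules, 3 reached the filter and Tnf was called higher (0.52, SE 0.19, adjusted p = 0.0225). Of 5 sheddases, Adam8 (1.69) and Mmp14 (1.02) were called higher and the other 3 did not pass.

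Between strains at baseline, 3 of 14 tested selectin-related genes were lower in C3H and 3 were higher. Of all genes tested, 7.87% were called lower and 3.92% higher, and the counts here are to be read beside these shares. Among them were Chst4 (-1.51), Cd24a (-0.87) and Chst2 (0.86). Of the 7 integrins tested Itgb7 (-0.79) and Itga4 (-0.54) were lower in C3H, Itga4 not after either rescaling, and of the 5 sheddases Mmp9 (-1.62, SE 0.18, adjusted p = 0.000105). Icam2 (0.51) and Esam (0.43) of 8 genes tested of the endothelial list, and Spp1 (1.09) and Hyal1 (0.90) of 9 of the CD44 list, were higher in C3H. Il1a was higher (0.79) and Il1b lower (-1.02) of 2 cytokine genes tested.

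After ATG in hyperoxia over both strains, 4 genes of these lists were called and all were lower. Of all genes tested, 1.58% were called lower and 3.89% higher. The 4 were Icam2 (-0.32) and Pecam1 (-0.32) of 8 endothelial genes tested, Chst2 (-0.38) of 14 selectin-related genes and Spp1 (-0.92) of 10 of the CD44 list. None was called of 7 integrins, 3 cytokine genes and 5 sheddases. Pecam1 encodes PECAM1, through which leukocytes pass between endothelial cells. In C3H, where Icam1 was higher after ATG, Icam2 was lower by -0.55 (SE 0.11, adjusted p = 0.0106) and Pecam1 by -0.43 (SE 0.09, adjusted p = 0.0148). Of 9 endothelial markers, a list that also holds Pecam1, 2 were lower after ATG in that strain. Of all genes, 1.05% were called lower there and 2.65% in either direction. In room air no gene of the lists was called after ATG.

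Members were also compared with each other, mouse by mouse, as deviations from the group means (15 pairs, 48 lungs, permuted within groups). Sele and Selp went together (r = 0.82, permutation p = 0.0018, adjusted p = 0.0108, rho = 0.62, permutation p = 0.00167), as did Selp and Cd44 (r = 0.81, permutation p = 0.00091, adjusted p = 0.0108, rho = 0.64, permutation p = 0.00119). Selplg went with Cd44 (r = 0.66, permutation p = 0.00216, adjusted p = 0.0108, rho = 0.62, permutation p = 0.00039), with Sele (r = 0.67, permutation p = 0.00636, adjusted p = 0.0238, rho = 0.49, permutation p = 0.00985), and Sele with Cd44 (r = 0.68, permutation p = 0.0147, adjusted p = 0.0442, rho = 0.52, permutation p = 0.00793). Mice 19 and 33 lay farthest from the median in the deviations of Sele, of Selp and of Selplg, and Cd44 was not used to choose them. Without mice 19 and 33 r was 0.65, 0.70, 0.50, 0.50 and 0.49. Selp with Selplg did not pass (r = 0.60, permutation p = 0.0224, adjusted p = 0.056, rho = 0.42, permutation p = 0.0269), and without mice 19 and 33 its r was 0.38. None of the 9 pairs with Icam1 or Vcam1 passed, the highest being Vcam1 with Sele (r = 0.45, permutation p = 0.0889, adjusted p = 0.19, rho = 0.19, permutation p = 0.327).

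Over the 48 lungs, the genes most like each member in level among 16994 were named by Pearson's r, as a description that includes the differences between groups. Among the nearest to Icam1 were Rela (0.94) and Ctps (0.94). Selp was most like the cytokine and chemokine genes Il6 (0.97), Ccl7 (0.96) and Ccl2 (0.96). Sele was most like Kctd11 (0.90), Junb (0.89) and Oaf (0.88). Among the nearest to Selplg were Mxd1 (0.92) and Rac2 (0.91), and Cd44 was most like Plek (0.93), Slc15a3 (0.93) and Fcgr3 (0.92). Vcam1 had no gene as close, with Pdlim1 (0.60), Dll1 (0.57) and Ntn1 (0.56) the nearest.

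By deviations from the group means, which leave the group differences out, Icam1 was most like Rela (0.77), followed by Stau1 (0.72) and Rab11fip1 (0.72). Among the nearest to Selplg were Mxd1 (0.92) and Csf3r (0.91), the last of which is also one of the 9 neutrophil markers. Selp was most like Ccl7 (0.91), Slc2a1 (0.90) and Zc3h12a (0.90), and Cd44 like Il1rn (0.91), Fpr2 (0.90) and Plek (0.89). Among the nearest to Sele were Tnfaip3 (0.87) and Lif (0.85). For Vcam1 the nearest were Cxcl14 (0.61), Pim1 (0.60) and Tnxb (0.60). These points share the mice of high neutrophil sums, and no test was run on them.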

How the data were processed

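RNA with poly(A) tails from 48 lungs, 1 mouse each, was sequenced by the authors. Reads were aligned with GSNAP to the genome build mm10, and the deposited FPKM values were estimated with Cufflinks. The annotation release is not given in the sources used here. The values are not counts, so depth is unknown, no counting error can be given and precision comes from the spread between mice. Akap5, with failed estimates in 7 mice, was not used.

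Groups were taken from the labels. The members and gene lists were chosen with earlier results of these data known. Fits used limma 3.58.1 (R 4.3.3, eBayes with trend) on log2(FPKM + 1). A gene entered a fit where 3 or more of its mice reached 1 FPKM, and the Benjamini-Hochberg adjustment ran over all these genes, with calls under 0.05. Fits held the 12 baseline mice, the 24 saline mice, the 24 mice in room air, the 24 in hyperoxia or all 48. Intervals of 95% use the t distribution with limma's degrees of freedom and are not adjusted for the number of tests. Single members were also compared by exact permutation tests of FPKM within strain and sex (SciPy 1.17.1), two-sided, without adjustment for the number of members. Where groups of a member did not overlap, the share of all genes without overlap is not given here. Correlations over mice used 100000 permutations within groups. The fits were tested on simulated data.

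The text names every member, up to 4 called genes of each list with the largest differences, and the 3 genes most like each member, apart from some genes that are not reported here. Alternative settings were a smaller pseudocount (0.1), a filter of 0.1 FPKM or none, quantile normalization, scaling by median ratios, eBayes without trend, a fit of all 48 mice and leaving out each mouse. The step without mice 19 and 33, and the comparisons of ATG in hyperoxia within and between strains, were added after the data were seen.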

Additional observations from a re-analysis of the deposited data

Results flagged for a closer look

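Values of the 6 members were searched for single lungs far from the rest in 48 sets of 6 mice, each a strain under 1 injection and air. A lung was named where its gap to the nearest other lung, as a share of the set's range, was above Dixon's 95% critical value for 6 values. This held in 7 sets. Chance would give it in about 1 set in 20 if the values were normally distributed and came from 1 group. These sets held raw FPKM of both sexes, so that rate may not apply, and the 6 members share the same mice. Mouse 33, a hyperoxic C3H female given saline, stood apart in 4 of them. Its Selp, 80.8 FPKM, had a ratio of 0.933 against 3.96 to 9.12 in the other 5 lungs. Its Sele, 21.3 FPKM, had 0.895 against 0.235 to 2.46, its Vcam1, 45.2 FPKM, had 0.745 against 23.3 to 28.9, and its Cd44, 112 FPKM, had 0.717 against 35.7 to 57.1. Mouse 48, a hyperoxic C57B female given ATG, stood apart in Selp (32.2 FPKM, ratio 0.893, others 7.09 to 9.77) and in Cd44 (85.7 FPKM, ratio 0.848, others 42.1 to 48.8). In room air, mouse 39, a C57B female given saline, stood apart in Selp (4.71 FPKM, ratio 0.786, others 1.54 to 2.22).

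The neutrophil sum was 6363 in mouse 33 and 1107 in mouse 48, each the highest of its set. Mouse 19 was not named by this search, since the C57B females of its set were also high in Selp, at 19.2 to 33.3 FPKM beside 44.9 in mouse 19.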

How the results depend on the processing

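Icam1, Selp, Sele and Cd44 in hyperoxia over both strains, and Selplg between strains, were called in the same direction under each alternative run, leave-one-out fits included. Leaving out each mouse in turn, the log2 differences ran from 1.15 to 1.27 for Icam1, from 1.74 to 2.13 for Selp, from 0.90 to 1.24 for Sele, from 0.68 to 0.90 for Cd44 and from -0.80 to -0.67 for Selplg. The number of members called ran from 1 to 5 for hyperoxia in C3H (5 without mouse 31), from 0 to 1 for sex, for strain by sex and for strain by hyperoxia, from 1 to 2 for ATG in hyperoxic C3H and from 0 to 2 for strain by ATG. Without mice 19 and 33, 1 member was called for strain by hyperoxia, 1 for sex by hyperoxia, 3 for ATG in hyperoxic C3H and 2 for strain by ATG. With quantile normalization 0 were called for ATG in hyperoxic C3H. In a fit of all 48 mice 1 (Selplg, adjusted p = 0.0443) was called for ATG in hyperoxic C57B and 1 (Icam1) for strain by ATG. Cd44 in C3H under hyperoxia lost its call under both other filters, both other scalings (0.45, adjusted p = 0.130, and 0.46, adjusted p = 0.171) and 12 of the fits without 1 mouse.

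Members that had not been called changed sign as follows, and the cause was not tested. With quantile normalization the log2 difference was 0.0079 for Cd44 between strains, 0.014 for Selp between sexes, -0.10 for Vcam1 in hyperoxia, -0.041 for Vcam1 and -0.13 for Selplg in hyperoxia in C57B, and -0.00065 for Icam1 in ATG by hyperoxia. With median ratio scaling it was 0.069 for Cd44 between strains, 0.035 for Vcam1 between sexes, -0.036 for Vcam1 in hyperoxia and -0.0083 for Vcam1 in ATG by hyperoxia. Without mice 19 and 33 it was -0.10 for Vcam1 in hyperoxia, -0.078 for Vcam1 and -0.17 for Selplg in hyperoxia in C57B, 0.12 for Vcam1, 0.044 for Sele and 0.048 for Cd44 after ATG in hyperoxia, and 0.12 for Sele in ATG by hyperoxia. Without 1 mouse, Vcam1 ran from -0.044 to 0.068 in hyperoxia, from -0.13 to 0.049 in C3H, from -0.078 to 0.15 in C57B, from -0.19 to 0.068 for strain by hyperoxia, from -0.18 to 0.080 for sex by hyperoxia, from -0.056 to 0.062 after ATG in hyperoxia and from -0.019 to 0.10 for ATG by hyperoxia. Without 1 mouse, Cd44 ran from -0.12 to 0.049 between strains, Selp from -0.26 to 0.030 between sexes, from -0.20 to 0.37 for strain by sex and from -0.0044 to 0.40 after ATG in hyperoxia, Icam1 from -0.12 to 0.34 for strain by sex, and Selplg from -0.17 to 0.17 in hyperoxia in C57B and from -0.018 to 0.38 after ATG in hyperoxic C3H.

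Over all genes, the fit of all 48 mice called 2981 genes between strains and 2057 between sexes, against 1832 and 104, and the fits without 1 mouse called 1306 to 4021 and 20 to 3640. For ATG in hyperoxic C57B the count was 0 without mice 19 and 33, 489 in the fit of all 48 mice, 26 without the trend and 3 to 545 without 1 mouse, against 137. Quantile normalization moved the median of all genes by over 0.1 in 6 comparisons (strain, sex and strain by sex at baseline, hyperoxia in C3H, strain by hyperoxia and sex by hyperoxia), from between -0.15 and 0.15 to near 0, and the share of called genes that were higher fell from 66.9% to 50.8% for hyperoxia in C3H and from 75.6% to 49.1% for strain by hyperoxia. No paired analysis was possible because each mouse has a number of its own. Depth is unknown, so levels near 0, such as those of Sele in room air, have no counting error.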
